A study of Bos taurus and Sus scrofa with 10 samples.

Results

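The genes described here are 150 cow genes whose RNA was transient: it was high in the 8-16 cell embryo or the morula, and low in the oocyte, the 2-4 cell embryo and the blastocyst. They came from 18691 cow rows that carried a gene symbol and lay outside the mitochondrial genome. Levels are reads per 1000000 reads of a library (RPM) and take no account of gene length, so a level is compared between stages and not between genes. For each gene the higher of the 8-16 cell and morula levels (its peak) was set against the highest of the other 3 levels, with 1 RPM added to both. A peak of at least 20 RPM and a ratio of at least 8 were required. The rule was met by 177 rows, 0.947% of the named rows and 3.32% of those with a peak of at least 20 RPM, and the 150 with the highest ratio were kept. The members were thus chosen by their levels in all 5 cow libraries, so these levels are a description and carry no test. The pig libraries of the same series, the positions of the genes and their families were not used in the choice.

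RNA sequencing of total RNA covered 5 stages in cow (Bos taurus) and in pig (Sus scrofa): the oocyte, the cleaving embryo with 2-4 and then with 8-16 cells, the morula (a solid ball of cells) and the blastocyst (a hollow embryo in which the first lineages have formed). Each stage of each species had 1 library, so no difference below has a replicate check. All groups were handled with the same kits, and no agent, genotype or strain is named in the labels. The number of oocytes or embryos per library and the way the embryos were obtained are not given in the sources used here.

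In mammals the first divisions run on RNA stored in the oocyte. The embryo then begins to transcribe its own genome, in cow mainly around the 8-16 cell stage, while maternal RNA is degraded. Some genes switched on in this window are silenced again before the blastocyst forms its first cell lineages, and genes otherwise known from germ cells are among those reported in such windows. In bulk libraries, fewer molecules per embryo and a smaller share of all RNA cannot be told apart.

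Cow read totals lay between 3899291 (morula) and 14182046 (blastocyst), and pig totals between 3002751 and 4138616. A count of 0 reads allows up to 3 reads, which corresponds to 0.212 RPM in the deep cow blastocyst library and to between 0.552 and 0.769 RPM in the other 4 cow libraries. Mitochondrial reads took from 2.74% to 30.2% of the cow libraries, with the highest share in the blastocyst. Defining markers followed the cow oocyte and blastocyst labels. All 21 of 21 oocyte markers were higher in the oocyte than in the blastocyst library, and 20 of 22 blastocyst markers were lower in the oocyte. This check does not reach the 2-4 cell, 8-16 cell and morula labels. The median oocyte marker had 133 RPM in the oocyte and 157 RPM in the 2-4 cell library. None of the 150 genes was on either marker list or on the list of 19 cumulus cell markers. The summed level of those cumulus markers was 438 RPM in the oocyte, 412 in the 2-4 cell embryo, 118 at the 8-16 cell stage, 45.7 in the morula and 1037 RPM in the blastocyst library, where PTGS2 alone held 902 RPM and the median of the list was 0.212 RPM.

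Together the 150 genes held 0.0921% of the reads of the oocyte library and 0.0889% at the 2-4 cell stage. Their share was 2.52% at the 8-16 cell stage and 2.20% in the morula, and 0.161% in the blastocyst library. The median member stood at 1.01 RPM in the oocyte and 1.13 RPM at the 2-4 cell stage, at 58.8 RPM at the 8-16 cell stage and 46.7 RPM in the morula, and at 2.43 RPM in the blastocyst. Peak levels ran from 20.1 to 3911 RPM with a median of 78.5 RPM, and 64 members peaked at 100 RPM or more. No read was counted in the oocyte and the 2-4 cell library for 28 members, and 19 of these had none in the blastocyst library either. The highest of the 3 low levels was that of the blastocyst for 81 members, of the 2-4 cell embryo for 47 and of the oocyte for 22.

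**Figure D1:**
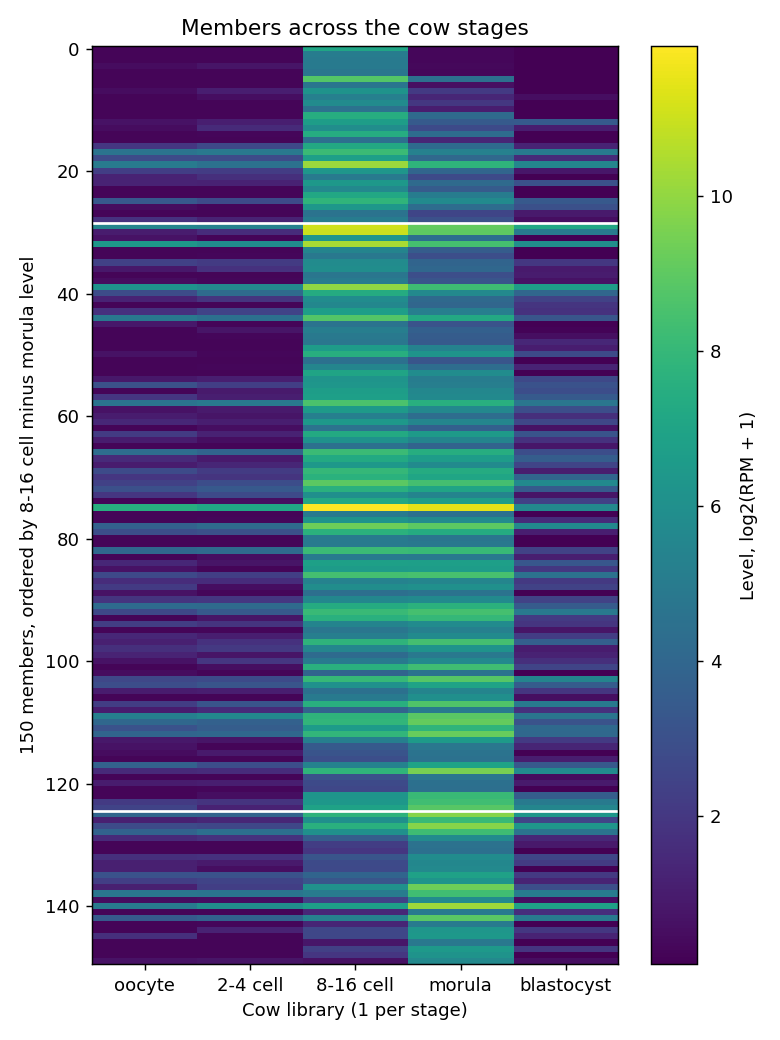
Level of each of the 150 members (rows) in the 5 cow libraries (columns), as log2(RPM + 1) in colour. Rows are ordered by the 8-16 cell level minus the morula level on that scale, and white lines separate the 29 genes at least 4-fold higher at the 8-16 cell stage, the 96 between, and the 25 at least 4-fold higher in the morula.

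At the lower edge of the ratio, FAM92A (ratio 9.20), AZI2 (9.21) and FAXC (9.32) were the last genes kept. RNF24 (9.14), CXADR (9.07) and PRNP (8.95) were the first left out. At the edge of the peak level, CRABP1 was kept at 20.1 RPM, while OTX1, a homeobox gene, was left out at 19.1 RPM with a ratio of 16.7. The same thresholds were met by 30 of 4120 rows that carry an identifier and no symbol; these are not among the members.

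The first comparison asked at which of the 2 peak stages the members were higher. The 8-16 cell level was higher for 85 members (56.7%) and the morula level for 65. For 13 members the 95% Wilson intervals of both levels overlapped. Among all 5324 named genes with at least 20 RPM at one of these stages, 47.7% were higher at the 8-16 cell stage. On the log2(RPM + 1) scale, 29 members (19.3%) were higher by 2 or more at the 8-16 cell stage and 25 (16.7%) in the morula, against 5.82% and 8.53% of those 5324 genes. Over all named genes compared between both libraries the shares were 4.96% and 6.76%. These libraries chose the members, so the difference in shares is a description.

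**Figure D2:**
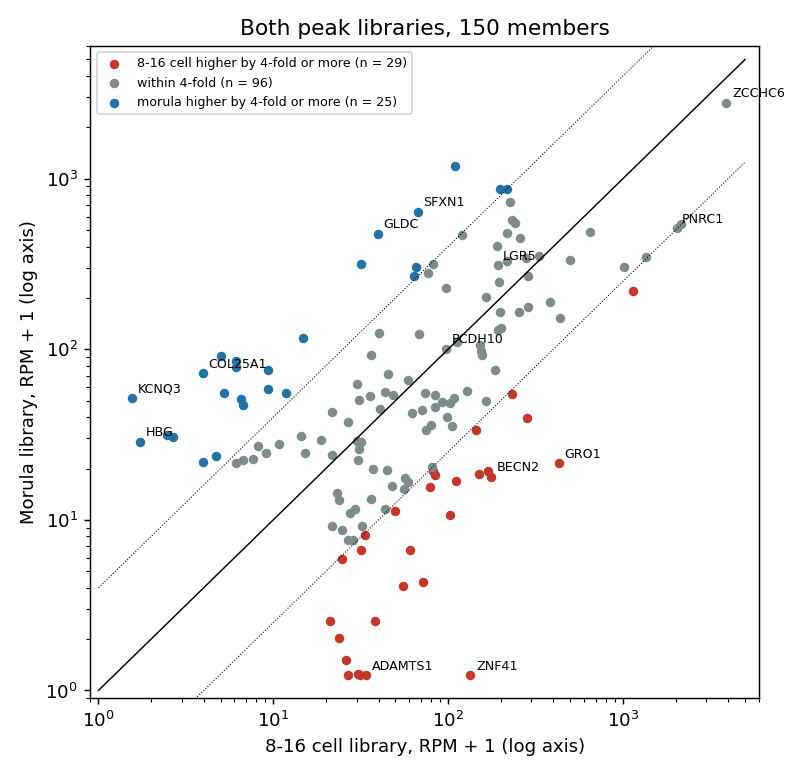
Level in the 8-16 cell library against level in the morula library, both as RPM + 1 on log axes, for the 150 members. Dotted lines mark 4-fold differences: 29 genes lie beyond them on the 8-16 cell side, 25 on the morula side, and 96 lie between, with ZCCHC6 at 3911 and 2789 RPM at the upper end.

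Genes with the highest ratio among those higher at the 8-16 cell stage were GRO1, BECN2, PCDH8, DDX3Y, ZNF41, CT55, PNRC1 and ARSJ. GRO1, a CXC chemokine gene (chromosome 6, 90822748 to 90824841, in the cow build UMD3.1 that the notes name), had 0 reads in the oocyte, 0 in the 2-4 cell embryo, 432 RPM in the 8-16 cell embryo (95% Wilson interval 415 to 450), 20.5 RPM in the morula and 0 reads in the blastocyst. Its peak was at least 639-fold above the highest floor of the 3 libraries without reads. Rows of the related chemokines CXCL2, CXCL3 and CXCL8 held at most 2 reads in any cow library, and how reads that match several of these genes were placed is not given in the sources used here. BECN2, an autophagy gene related to beclin 1, had 175 RPM at the 8-16 cell stage and 16.9 RPM in the morula, with 0 reads in the other 3 libraries. Its relative BECN1 ranged only from 17.4 to 42.0 RPM over the 5 libraries.

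ZNF41, a zinc finger gene on the X chromosome (91031761 to 91044478), showed the sharpest pattern of all members with an 8-16 cell peak. It had 133 RPM at the 8-16 cell stage and 0 reads in each of the other 4 libraries, the morula included. ADAMTS1, a secreted metalloprotease, was similar, with 33.0 RPM at the 8-16 cell stage, 1 read in the oocyte and 0 reads elsewhere. PCDH8, a protocadherin, had 169 RPM in the 8-16 cell embryo, 18.5 RPM in the morula and at most 1 read in the other libraries. PNRC1, a nuclear receptor coactivator, went from 1.01 RPM in the oocyte and 2.03 RPM at the 2-4 cell stage to 2032 RPM in the 8-16 cell embryo, 511 RPM in the morula and 31.1 RPM in the blastocyst. ARSJ, an arylsulfatase gene, had 79.7 RPM at the 8-16 cell stage and 19.5 RPM in the morula.

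DDX3Y, which encodes an RNA helicase and is placed on the X chromosome in the table (143364826 to 143375658), had 143 RPM in the 8-16 cell embryo, 32.8 RPM in the morula and 0 reads in the other 3 libraries. The near-identical DDX3X had reads throughout, at 605, 484, 524, 456 and 121 RPM from oocyte to blastocyst. How reads that match both genes were placed is not given, so the DDX3Y level is uncertain, and the part of DDX3X reads in it was not tested. DDX3Y is known as the Y-linked copy, and the sex of the embryos in each library is not given either.

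Among genes higher in the morula, the highest ratios belonged to SFXN1, COL25A1, ETNPPL, LGR5, ADAMTS6, EGFLAM, NME5 and HLCS. SFXN1, a mitochondrial serine carrier, stood at 1.22 RPM in the oocyte, 3.83 in the 2-4 cell embryo, 66.3 at the 8-16 cell stage, 639 in the morula (615 to 665) and 6.63 RPM in the blastocyst. COL25A1, a membrane-bound collagen, had 2.95 RPM in the 8-16 cell embryo, 71.3 RPM in the morula and 0 reads in the other libraries. ADAMTS6, a secreted metalloprotease like ADAMTS1, had 62.6 RPM at the 8-16 cell stage and 268 RPM in the morula, against 1.22, 1.58 and 4.79 RPM in the oocyte, the 2-4 cell embryo and the blastocyst. EGFLAM, a matrix protein of synapses, had 29.1 and 61.5 RPM at the peak stages, and NME5, a protein of cilia, had 4.23 and 54.6 RPM. KCNQ3, a potassium channel subunit, was the most morula-restricted member, at 50.5 RPM in the morula against 3 reads in each of the 3 earlier libraries and 0.423 RPM in the blastocyst. HBG, a globin gene of a family with close copies, had 27.7 RPM in the morula, 0.736 RPM at the 8-16 cell stage and 0 reads elsewhere. HLCS, which attaches biotin to carboxylases, was already present in the oocyte at 14.4 RPM and reached 232 RPM at the 8-16 cell stage and 572 RPM in the morula before 15.8 RPM in the blastocyst.

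The broadest members kept nearly one level over both stages. LRRC69, a leucine-rich repeat gene, had 111 RPM at the 8-16 cell stage and 109.5 RPM in the morula. PCDH10, a protocadherin, had 96.1 and 100.02 RPM at these stages, 3 reads in the oocyte, 0 reads at the 2-4 cell stage and 3.03 RPM in the blastocyst. Their Wilson intervals overlapped between both stages, so no order of the 2 stages was detectable for either gene at this depth.

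ZSCAN4, a marker of genome activation in mammals, had 29.5 RPM in the 8-16 cell embryo, 21.3 RPM in the morula and 0 reads in the oocyte, the 2-4 cell embryo and the blastocyst. NR5A2, a nuclear receptor tied to genome activation and pluripotency, had 1.83, 2.48, 10.9, 54.6 and 1.62 RPM from oocyte to blastocyst. These were the 2 members among 20 genes with a cow row on a list of genome activation regulators. Of the 20, 11 reached 20 RPM at either stage. Any listed gene without a row in the cow table could not be measured. Over all named genes members made up 0.803%, and 2.82% of those with such a peak. Outside the 150 kept, KLF4, a Kruppel-like factor, met the thresholds with 948 RPM at the 8-16 cell stage and a ratio of 8.66.

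From 43 immediate early and stress genes, DUSP1 and MYC were members, or 4.65% of the list against 0.803% of all named rows. DUSP1, a phosphatase that switches off MAP kinases, had 331 RPM at the 8-16 cell stage and 352 RPM in the morula, against 5.48, 3.83 and 22.2 RPM in the oocyte, the 2-4 cell embryo and the blastocyst. MYC, a growth regulator, had 25.8 RPM in the 8-16 cell embryo, 6.67 RPM in the morula, 0.987 RPM in the blastocyst and 0 reads before. FOS and JUN, the best known genes of this list, reached no more than 6.92 RPM and 3 reads at these stages. MYB, a transcription factor of proliferating progenitors, was named outside the list: it peaked at the 8-16 cell stage at 109.9 RPM, against 15.9 RPM in the morula and at most 5.88 RPM elsewhere. BACH2, a transcriptional repressor of lymphocytes, had its peak in the morula instead, at 50.3 RPM against 5.52 RPM at the 8-16 cell stage. KLF9 was the 1 member among 13 Kruppel-like factor genes, at 72.5 and 54.4 RPM at both peak stages.

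BRDT, the testis-type member of the BET proteins that bind acetylated histones, had 5.88, 3.38, 253, 163 and 1.06 RPM from oocyte to blastocyst. It was the 1 member among 54 chromatin modifiers, and made up 2.27% of the 44 listed genes with a peak of at least 20 RPM, below the 2.82% over all genes. Of its relatives, BRD2 had 111 and 125 RPM at both peak stages and 77.6 RPM in the blastocyst, and BRD3 was highest at the 2-4 cell stage, at 68.9 RPM. LRIF1, which binds heterochromatin protein 1, had 1348 RPM at the 8-16 cell stage and 348 RPM in the morula against at most 81.9 RPM elsewhere. ELL2, an elongation factor of RNA polymerase II, had 1134.5 RPM at the 8-16 cell stage and 217 RPM in the morula. Zinc finger genes by name gave 4 members of 278 rows (1.44%, against 0.803% of all named rows): ZNF609, ZNF608, ZNF41 and ZSCAN4. They made up 5% of the 80 such rows with a peak of at least 20 RPM, against 2.82% of all named rows with such a peak. ZNF609 peaked in the morula, at 1191 RPM against 108 RPM at the 8-16 cell stage and 114 RPM in the blastocyst. HIST1H2BB, a histone gene of a multicopy family, had 239 and 552 RPM at both peak stages.

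ZCCHC6 had the highest peak of all members. It encodes TUT7, an enzyme that adds uridines to messenger RNA and so marks it for decay, and it lies on chromosome 8 (80842965 to 80899685). Its level was 182 RPM in the oocyte, 136 in the 2-4 cell embryo, 3911 in the 8-16 cell embryo (3859 to 3964), 2789 in the morula and 49.7 RPM in the blastocyst. ZCCHC11, which encodes the sister enzyme TUT4, had 12.2, 6.08, 32.6, 14.6 and 146 RPM in the same order, with its highest level in the blastocyst. RBBP6, a ubiquitin ligase that takes part in messenger RNA 3' end formation, was the second highest member, with 44.0, 38.8, 2159, 543 and 141 RPM.

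**Figure D3:**
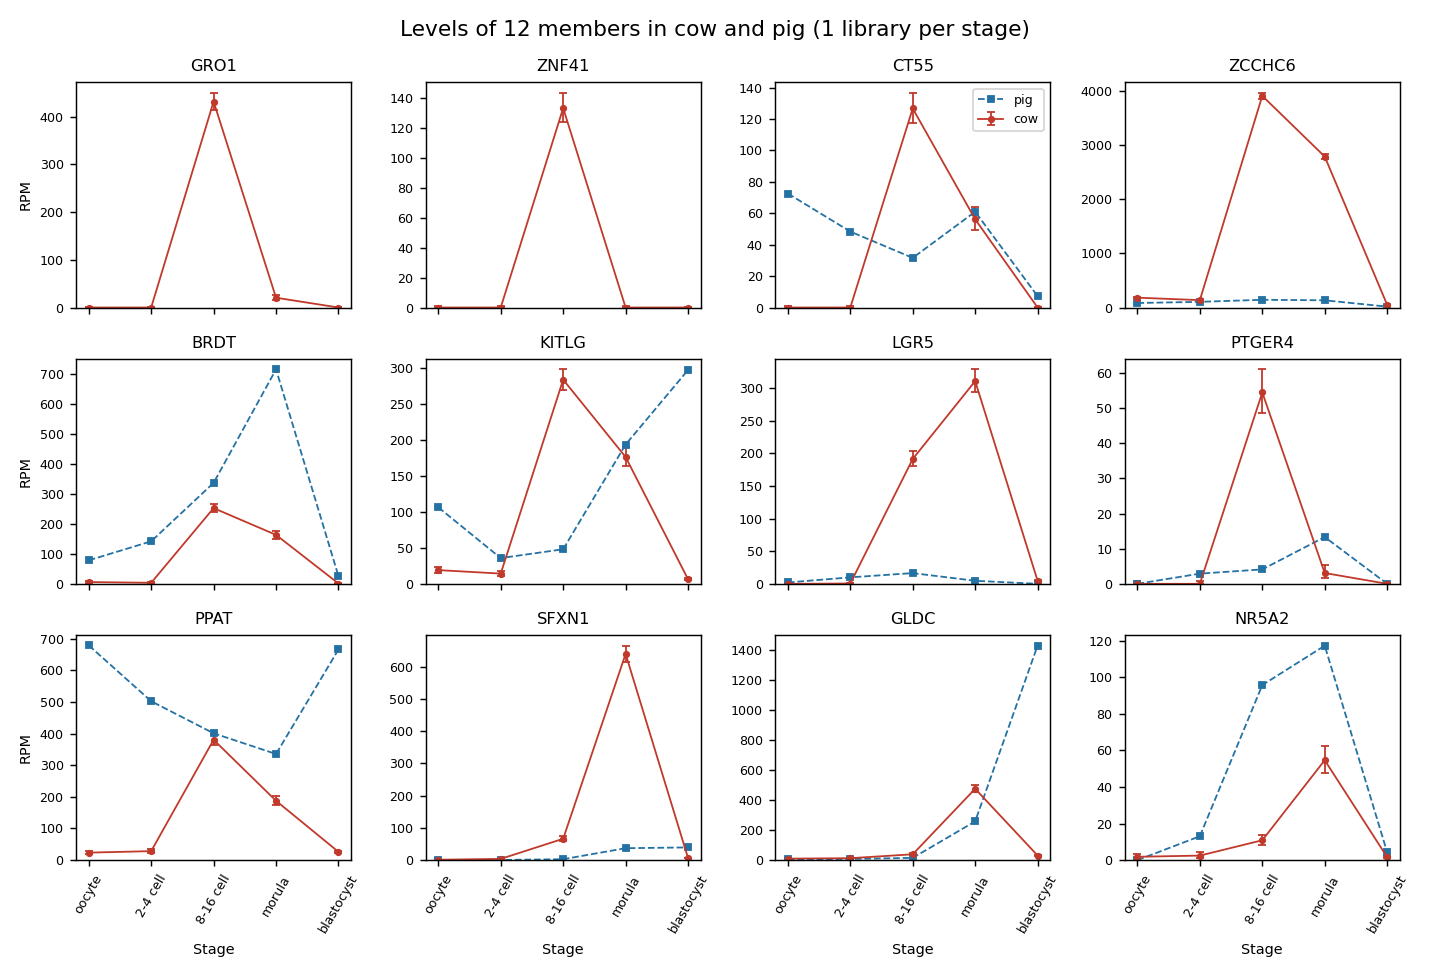
Levels in RPM (linear axis from 0) of 12 members in the cow libraries (red, with 95% Wilson intervals for counting error only) and, where the symbol is in the pig table, in the pig libraries (blue dashes); both tables were scaled separately. Cow levels peak at the 8-16 cell stage or the morula by the choice of members, whereas pig PPAT is highest in the oocyte and pig GLDC and KITLG in the blastocyst.

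KITLG and NRG1 were the members among 85 secreted ligands, or 2.35% of the list against 0.803% of all named rows and 15.4% of its 13 genes with a peak of at least 20 RPM against 2.82%. No member came from 24 ligand antagonists. KITLG, the ligand of the KIT receptor, had 19.1, 14.2, 284, 176 and 6.35 RPM from oocyte to blastocyst. The receptor gene KIT was low where KITLG was high, with 243, 364, 48.4, 10.3 and 288 RPM. NRG1, a ligand of ERBB receptors, had 83.6 RPM at the 8-16 cell stage and 53.1 RPM in the morula, while ERBB3, a receptor for it, had at most 1.10 RPM before the blastocyst and 41.7 RPM there.

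LGR5, a receptor for R-spondins, had 0 reads in the oocyte, 2 reads in the 2-4 cell embryo, 191 RPM in the 8-16 cell embryo, 311 RPM in the morula and 4.72 RPM in the blastocyst. Its relative LGR4 stayed between 35.1 and 76.4 RPM. The receptors PTGER4 and PTGER3 for prostaglandin E2 were both members, out of 4 such genes in the table, against 0.803% of all named rows. The other genes, PTGER1 and PTGER2, had at most 2 reads in any cow library. PTGER4 had 54.5 RPM in the 8-16 cell embryo, 3.08 RPM in the morula and 0 reads elsewhere, whereas PTGER3 had 20.6 and 23.1 RPM at these stages. PTGES3, a prostaglandin E synthase that is also a co-chaperone of HSP90, had 1007 RPM at the 8-16 cell stage. PTGS2, the enzyme that starts prostaglandin synthesis, was low when these were high, with 91.3, 60.8, 4.42, 1.54 and 902 RPM from oocyte to blastocyst. These receptor and enzyme groups were assembled after the values of the members had been seen, so nothing is read from their counts.

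Metabolic genes of neighbouring pathways were also present, in groups assembled the same way. PPAT, which opens purine synthesis, had 23.7, 28.4, 380, 187 and 26.1 RPM, and GART, which carries out 3 later steps, had 2.84, 2.70, 198, 133 and 14.4 RPM. The span of PPAT overlaps that of PAICS on the other strand, whose reads amounted to 35.4% of those of PPAT at its peak. Of the other 4 purine genes looked at, PAICS was also highest at the 8-16 cell stage, within a narrower range of 56.6 to 135 RPM. PFAS had at most 1 read in the oocyte and the 2-4 cell embryo and peaked in the morula at 20.3 RPM, with 8.53 RPM in the blastocyst. ADSL and ATIC were highest in the blastocyst, at 93.5 and 105 RPM. UCK2, a uridine-cytidine kinase, had 189 RPM at the 8-16 cell stage and 403 RPM in the morula against at most 30.7 RPM elsewhere.

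Enzymes that handle serine, glycine and threonine gave 4 members of 13 genes looked at; since the group was put together around members, nothing is read from that count against the 0.803% over all named rows. GLDC, the glycine-cleaving decarboxylase, had 9.94, 12.8, 38.8, 475 and 30.6 RPM, with its peak in the morula like SFXN1. SDS, serine dehydratase, had 20.5 RPM in the morula, and TDH, threonine dehydrogenase, 22.1 RPM at the 8-16 cell stage. The other 9 genes of the group were spread over the stages: AMT, GCSH and SHMT1 were highest at the 8-16 cell stage or in the morula, PSPH, SHMT2 and MTHFD1 at the 2-4 cell stage (59.7, 125 and 241 RPM), and PHGDH, PSAT1 and MTHFD2 in the blastocyst (9.73, 23.5 and 37.8 RPM). SLC25A12, SLC26A3, SLC28A2 and SLC38A1 were the members among 347 solute carrier rows, 1.15% of them. SLC25A12, which exchanges aspartate and glutamate across the mitochondrial membrane, was the highest of these, at 286 and 269 RPM at both peak stages. SLC38A1, a glutamine carrier, had 20.8 RPM at the 8-16 cell stage and 8.21 RPM in the morula, while SLC28A2, a nucleoside carrier, and SLC26A3, an anion exchanger, peaked in the morula at 22.8 and 26.9 RPM. IMP3 was the 1 member among 53 ribosome biogenesis genes, at 82.8 RPM, and no member came from 22 heat shock genes.

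Several members are known from germ cells. CT55, a cancer/testis antigen gene on the X chromosome, had 127 RPM in the 8-16 cell embryo, 56.2 RPM in the morula and 0 reads in the other 3 libraries. FSIP2, a protein of the sperm tail, had 48.6 and 10.3 RPM at these stages and likewise 0 reads elsewhere. HORMAD1, a protein of meiotic chromosome axes, had 77.9 RPM in the 8-16 cell embryo, 14.6 RPM in the morula and at most 3.85 RPM elsewhere, and TERB2, which tethers meiotic telomeres, had 35.2 RPM at the 8-16 cell stage. TEX11, an X-linked meiotic gene, peaked in the morula at 122 RPM. Of 18 meiotic or germ cell genes looked at after the members were known, 6 were members, against 0.803% of all named rows. The rule places these 6 at the 8-16 cell stage or in the morula. Of the 10 others with at least 1 RPM, 7 were highest at the 8-16 cell stage or in the morula. Over all named rows with at least 1 RPM in a library this share was 34.4%. It was 47.6% for those with a peak of at least 20 RPM. HFM1, among the 7, met the rule at a ratio of 8.83 but was not kept. TERB1, also among them, had 155 RPM at the 8-16 cell stage and 152 RPM in the oocyte. The group was assembled after the members were known, so nothing is read from its counts. DAZL, an RNA-binding protein of germ cells, had 137 and 158 RPM in the oocyte and the 2-4 cell embryo and 0 reads in the blastocyst.

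Positions were not used in the choice of members. The X chromosome held 13 of the 150 members (8.67%), compared with 3.75% of all named genes and 3.34% of those with a peak of at least 20 RPM. Members made up 7.30% of the X-linked genes with such a peak and 2.82% of those on all chromosomes. Of the 13 X-linked members, 7 had 0 reads in the oocyte, the 2-4 cell embryo and the blastocyst, whereas this held for 12 of the 137 members on other chromosomes. These 7 were DDX3Y, ZNF41, CT55, IL2RG, MGC148328, FAM46D and SPIN2B. DDX3Y is known as the Y-linked copy of DDX3X and is counted here by its place in the table; without it the counts are 6 of 12 X-linked members. By shape, 5 of the X-linked members were at least 4-fold higher at the 8-16 cell stage, 7 were within 4-fold, and HEPH alone was at least 4-fold higher in the morula.

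**Figure D4:**
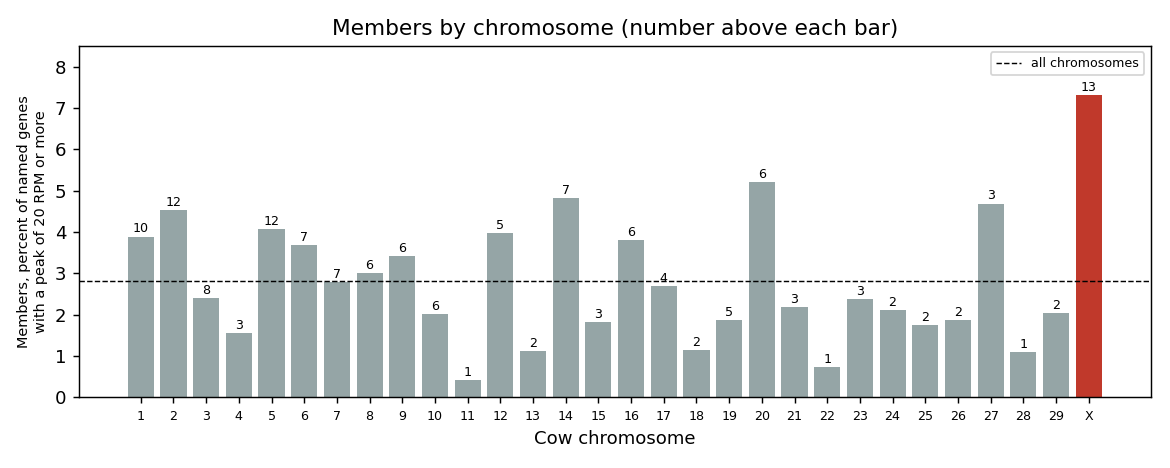
Members as a percentage of the named genes with a peak of at least 20 RPM, by cow chromosome, with the number of members above each bar and the value for all chromosomes as a dashed line. The X chromosome (red) stands at 7.30% with 13 members, against 2.82% over all chromosomes.

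Another member lay within 1 Mb for 29 members (19.3%), and such a member lay within 1 Mb of 12.5% of all named genes and 14.01% of those with a peak of at least 20 RPM. Within 100 kb the count was 8 members (5.33%), against 2.097% and 2.99%. The closest pair, TMEM169 and PECR on chromosome 2, overlaps on opposite strands. TMEM169 had 873 RPM and PECR 869 RPM in the morula, from 3406 and 3389 reads, and without strand information the reads of both cannot be told apart. TMEM37 and SCTR lay 2.38 kb apart, on opposite strands, with 8-16 cell levels of 198 and 27.4 RPM. RORB and TRPM6 lay 40.5 kb apart and COL25A1 and ETNPPL 41.1 kb apart. In the latter pair ETNPPL was at 193 RPM at the 8-16 cell stage already, when COL25A1 was at 2.95 RPM. No 2 neighbours within 1 Mb shared a name root.

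The median member spanned 34633 bases of the genome. The median over all named rows was 13937 bases, and it was 37899 bases over those with a peak of at least 20 RPM. The span of 13 members (8.67%) overlapped another row, close to the 8.73% among all named rows. For 4 of them, TMEM169, PECR and LXN included, the other row held at least 50% as many reads at the peak. By name, 3 of 29 protocadherin genes were members (PCDH8, PCDH10 and PCDH17), as were 2 of 23 ADAMTS proteases, against 0.803% of all named rows. Further families looked at gave 3 of 45 ANKRD genes, 2 of 58 LRRC genes, 2 of 25 TRP channels and 2 of 13 ZCCHC genes. The families were picked after the members were known, so nothing is read from these counts.

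The pig libraries gave a reading that was independent of the choice. The pig table held 122 of the 150 symbols, and 116 had at least 1 RPM in a pig library. Of these, 75 (64.7%) were highest at the 8-16 cell stage or in the morula, compared with 37.9% of 10770 shared symbols and 42.7% of the 4374 shared symbols whose cow peak reached 20 RPM. The morula was the most frequent stage, with 52 members (44.8%, against 24.4% and 32.3%), followed by the 8-16 cell stage with 23 (19.8%, against 13.5% and 10.4%). The blastocyst was highest for 19 members (16.4%, against 33.2% and 26.0%) and the oocyte for 12. The median pig level of these members was 3.55 RPM in the oocyte, 10.03 in the 2-4 cell embryo, 16.9 at the 8-16 cell stage, 20.98 in the morula and 6.97 RPM in the blastocyst.

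**Figure D5:**
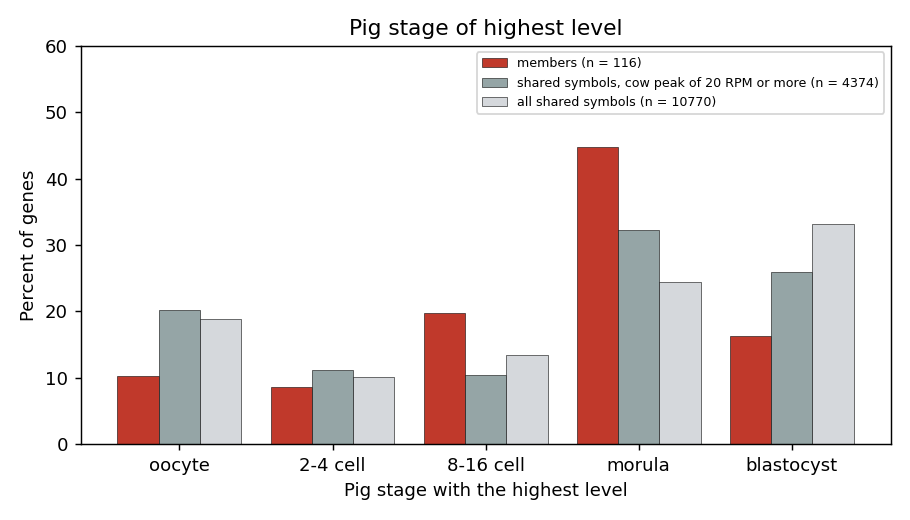
Percentage of genes whose highest pig level was at each stage, for the 116 members with at least 1 RPM in pig (red), for shared symbols whose cow peak was at least 20 RPM (dark grey, n = 4374) and for all shared symbols (light grey, n = 10770). The members are at 44.8% for the pig morula and 16.4% for the pig blastocyst, while all shared symbols are at 24.4% and 33.2%.

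Step by step, changes of 2 or more on the log2(RPM + 1) scale were counted among members with at least 1 RPM in either library. From the pig oocyte to the 2-4 cell embryo 20 of 99 members were higher (20.2%, against 3.09% of all shared genes and 2.34% of those with a cow peak of at least 20 RPM) and 0 were lower (against 2.12% and 1.94%). From the 2-4 cell to the 8-16 cell embryo 15 of 111 were higher (13.5%, against 4.14% and 4.16%) and 0 lower (against 0.455% and 0.232%). From the 8-16 cell embryo to the morula 18 of 111 were higher (16.2%, against 11.8% and 13.7%) and 8 lower (7.21%, against 11% and 8.37%), so both shares lay near those of genes with a like cow peak.

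At the last pig step, from the morula to the blastocyst, 41 of 109 members were lower (37.6%, against 13.3% and 13.6%). The 5 members that were higher (4.59%, against 13.9% and 6.86%) were near the share of genes with a cow peak of at least 20 RPM. From the pig oocyte to the higher of the 8-16 cell and morula levels, 60 of 112 members were higher (53.6%, against 20.9% and 22.9%) and 0 lower (against 0.919% and 0.552%). The median member changed by 2.20 in that comparison, the median shared gene by 0.70, and the median of those with a cow peak of at least 20 RPM by 0.57. Taking the higher of 2 libraries raises this measure for every gene, which the shared genes carry as well. Members were also low in the pig oocyte, at a median of 3.55 RPM against 8.14 RPM for all shared genes and 40.1 RPM for those with a cow peak of at least 20 RPM. The part of this low start in the counts was not tested.

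The full rule was met in pig by 5 of the 116 members (4.31%), against 0.455% of all shared symbols and 0.457% of those with a cow peak of at least 20 RPM. HS3ST5, ETNPPL, JCAD and NR5A2 were among them. HS3ST5, a heparan sulfate sulfotransferase, had 131 RPM in the pig morula and 1.07 RPM in the pig blastocyst, against 733 and 52.3 RPM in cow. ETNPPL, which breaks down phosphoethanolamine, had 34.4 RPM at the pig 8-16 cell stage and 288 RPM in the pig morula, while its cow levels at these stages were 193 and 248 RPM. JCAD, a junction protein, reached 269 RPM in the pig morula, and NR5A2 had 95.7 RPM at the pig 8-16 cell stage and 117 RPM in the morula. These 4 were highest in the morula in pig. With a ratio of at least 4 in place of 8, 11 members passed (9.48%, against 1.78%), adding BRDT, DUSP1, EGFLAM, NRG1, PNRC1 and YOD1.

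Other members followed another course in pig. Of those with the largest rise from the pig oocyte to the pig blastocyst, DSC3, a desmosomal cadherin, had 0 reads in the oocyte and 4.35, 6.95, 271 and 663 RPM thereafter, whereas in cow it had 29.8 and 24.9 RPM at both peak stages and 1 read in the blastocyst. GLDC reached 1427 RPM in the pig blastocyst. DDX3Y stayed at 126 RPM there, after 143 RPM in the pig morula, and SFXN1 at 39.4 RPM after 37.0 RPM. DDX3Y is known as the Y-linked copy of DDX3X, and the sex of the embryos in each library is not given. The part of embryo sex in the DDX3Y levels of both species was not tested. PTGES3 had 252 RPM in the pig blastocyst and 271 RPM in the pig morula. Some members were maternal in pig: RORB, an orphan nuclear receptor with 2 reads in the cow oocyte, had 366, 453, 671 and 382 RPM from the pig oocyte to the morula and 2 reads in the blastocyst, and PPAT was highest in the pig oocyte, at 679 RPM. ZCCHC6 varied less in pig, with 83.2, 105, 143, 133 and 16.1 RPM.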

How the data were processed

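The authors deposited 1 table per species with log2 values per gene and library. Per the submitters' processing notes, Trim Galore 0.6.4 and HISAT2 2.1.0 were used with the builds UMD3.1 (cow) and Sscrofa11.1 (pig); the counting tool, annotation release and strand handling are not given in the sources used here. Per the labels' protocols, RNA was isolated with a PicoPure kit, amplified with Ovation RNA-Seq V2 and made into libraries with PCR. Without molecular identifiers reads are not independent molecules, so intervals and floors cover counting error only.

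The scale was read from the deposited log2 values. In each column the second lowest value is 1 read, all higher values equal whole numbers of reads (within 0.01 read or 0.01%), and 0 reads are written as 0.9 of a read. They are thus log2 RPM, and 1 read fixes the library total. Python 3.11.15 with pandas 2.3.3 and scipy 1.17.1 gave levels, Wilson intervals (95%) and counts; the code was tested on simulated counts. Changes are differences of log2(RPM + 1), called at 2 or more where one library had 1 RPM. With 1 library per group no test was run. Pig rows were paired by identical symbol (13245 shared; of duplicates the highest mean). With synonyms, RefSeq names (ARS-UCD2.0) matched 149 of 150 symbols, 143 without them, and were used for names only. A protein-coding entry was assigned to 148. The members, the gene lists and the rule for named genes were chosen with earlier results of these data known. That rule named the 8 highest ratios for each peak stage, the 5 highest peaks, listed genes (up to 6 a list), members passing in pig, the 5 largest pig rises, neighbours with a shared name root, genes at the edges and the sharpest and broadest members. Other genes named were picked after their values were seen. Alternatives covered thresholds, pseudocounts, scaling and depth. Some genes are not reported here.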

Additional observations from a re-analysis of the deposited data

Results flagged for a closer look

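From the morula to the blastocyst, 5 of 109 members (4.59%) were higher in pig by at least 2 in log2(RPM + 1), against 13.9% of all shared genes and 6.86% of those with a cow peak of at least 20 RPM. The rule keeps the cow blastocyst level of a member far below its cow peak, so for these 5 the opposite directions in both species say no more than the pig values do. With 1 library per stage these differences between the species were not tested. The pig change was 2.46 for GLDC against -3.91 in cow, 2.34 for ZNF608 against -3.57 in cow, and 2.18 for ARSJ against -4.27 in cow. For FSIP2 the pig change was 2.1 and the cow change -3.40. For USH1C, a scaffold gene of sensory and intestinal cells, it was 2.58 in pig, from 1 read to 6.97 RPM, and -4.33 in cow.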

How the results depend on the processing

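No paired analysis was possible because each stage had 1 library, and leaving a library out leaves no value for its stage. The count of 177 cow genes meeting the rule was 91 at a pseudocount of 5, 483 at a ratio of 4 and 74 at a ratio of 16, and lay between 119 and 228 under the other 8 settings. Of the 150 members, 85 met the rule at a pseudocount of 5, 100 at a peak of 50 RPM and 74 at a ratio of 16. Under 4 other ways of scaling or thinning the libraries, 147 to 149 of the 150 members still met it. The count higher at the 8-16 cell stage (85) ranged from 79 to 88 on these members. The pig count of 75 ranged from 67 to 76 on these members, and was 87 of 138 with all genes that met the rule.

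Members meeting the full rule in pig (5) numbered 11 at a ratio of 4 and 8 at a peak of 10 RPM, and from 4 to 6 otherwise. With a change of 1 in place of 2, the pig counts of higher members became 36 (oocyte to 2-4 cell), 37 (2-4 to 8-16 cell), 38 (8-16 cell to morula) and 16 (morula to blastocyst). The counts of lower members became 3, 4 and 23 at the first 3 of these steps and 2 from the oocyte to the peak. With a pseudocount of 0.1, the count lower was 1 from the oocyte to the 2-4 cell embryo, 4 from there to the 8-16 cell embryo and 13 from there to the morula, and the count higher from the morula to the blastocyst was 10. Scaling to non-mitochondrial reads and quantile normalisation each gave 1 lower member at both of the first 2 steps, and median scaling gave 1 at the second. Within 100 kb in place of 1 Mb, 8 members had another member nearby. The cause of these shifts was not tested, beyond the looser or stricter thresholds themselves.

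The named genes' cow ratios kept their direction under every way of scaling or thinning run for them. Because the rule had required a ratio of at least 8, this check could hardly have shown a turn. With quantile normalisation, PTGES3 and FAM92A fell below that required ratio, at log2 ratios of 2.81 and 2.996. Motif shares in promoters were not run, since no promoter sequence was used here. Levels within a few reads of the floor are set by single reads, and amplification before sequencing adds error that the intervals do not cover. With 1 library per stage, differences between stages and between libraries cannot be told apart.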
